A study of Mus musculus with 12 samples.

Results

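The UDP-glucuronosyltransferases (Ugt) and cytosolic sulfotransferases (Sult) are the 2 large enzyme families with which the liver makes lipids, hormones, bile pigments and drugs soluble for excretion. Members were every protein-coding gene of the deposited tables named Ugt1, Ugt2 or Ugt3, or Sult1 to Sult7. The rule found 42 of 41325 genes, 21 Ugt and 21 Sult, without using any measured value. Poly(A) RNA was sequenced from 12 mouse livers in 3 groups of 4, all wild type and of strain C57BL/6J. Control mice were healthy animals that received vehicle. NASH vehicle mice had nonalcoholic steatohepatitis, a fatty liver with inflammation and scarring, brought on by CDAHFD, the abbreviation in use for a choline-deficient, amino acid-defined, high-fat diet, and received vehicle. CDDO-Me mice were given the same diet and CDDO-Me at 10 mg/kg, by mouth for 8 weeks. CDDO-Me (bardoxolone methyl) is a synthetic triterpenoid that binds KEAP1 and so activates the transcription factor NRF2. All 3 groups share the strain and the wild-type genotype, but the sources used here give neither age nor sex. No group received CDDO-Me without the diet. The labels number the libraries of a group without saying that each number is a separate mouse, so p-values measure the spread between these libraries. The question behind the design is which gene programs change when this diet injury is treated with CDDO-Me.

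Ugt enzymes sit in the membrane of the endoplasmic reticulum and move glucuronic acid from UDP-glucuronate onto a hydroxyl, carboxyl or amine group of the substrate. Sult enzymes work in the cytosol and move a sulfate group from the donor PAPS onto hydroxyl or amine groups. Both make water-soluble conjugates that transporters send into bile or blood. In liver, the receptors CAR and PXR, the aryl hydrocarbon receptor and NRF2 are known to raise many of these genes, and HNF4 factors to keep them on in hepatocytes.

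The Ugt1a genes need their sequences shown before their values, because they are built from common parts. On mouse chromosome 1 (GRCm38, GENCODE M21 annotation, plus strand), 9 Ugt1a genes each splice an exon, here called own, to the same 4 exons. The foremost of these 4 starts at 88215044. An own exon need not be exclusive to its gene: Ugt1a6a shares 2170 exon bases with Ugt1a7c, against 1311 with Ugt1a1. The own exon of Ugt1a9 lies at 88070800-88071678 and that of Ugt1a1 at 88211959-88212871. The common exons make up 58.9% of the Ugt1a1 transcript and 59.9% of that of Ugt1a9, so a 75-base read from them can come from any gene of the locus. A read that crosses the join names its gene if the own side differs. The last 30 bases of the own coding exon are printed in lower case and the 20 bases that all 9 genes share in capitals:
Ugt1a1: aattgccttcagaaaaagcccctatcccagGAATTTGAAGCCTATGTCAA
Ugt1a9: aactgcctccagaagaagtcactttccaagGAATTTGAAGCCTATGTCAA
Ugt1a7c: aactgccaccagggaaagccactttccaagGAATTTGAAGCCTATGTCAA
Ugt1a5: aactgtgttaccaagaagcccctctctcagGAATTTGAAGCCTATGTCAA
Ugt1a6a: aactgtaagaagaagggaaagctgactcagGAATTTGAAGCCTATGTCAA
Ugt1a6b: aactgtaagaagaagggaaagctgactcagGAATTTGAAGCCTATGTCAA
The joins of Ugt1a6a and Ugt1a6b are the same 50 letters. So are those of Ugt1a5 and Ugt1a2.

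The deposited tables count unique reads apart from all reads, and for the Ugt1a genes the unique share was small. It was 24.6% for Ugt1a7c, 6.46% for Ugt1a6b, 5.96% for Ugt1a9, 5.75% for Ugt1a10, 4.75% for Ugt1a1, 2.15% for Ugt1a5 and 0.134% for Ugt1a6a. Of the unique reads, 89.9% of those of Ugt1a9 and 87.8% of those of Ugt1a1 lay on exon-exon junctions, where the printed joins are. How the authors divided the remaining reads is not stated in the sources used here. Each Ugt1a result below, in NASH vehicle against control and in CDDO-Me against NASH vehicle, therefore stands beside the same test on unique reads. This holds where the gene had enough of them.

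Of the 42 members, 41 had at least 1 read, and the exception was Sult2a6, with 0 reads in all 12 libraries, which allows up to 3. A mean of at least 1 TPM (a level that is divided by transcript length and so can be compared between genes) was reached in some group by 27 members, 17 Ugt and 10 Sult. At least 100 TPM was reached by 14, 11 Ugt and 3 Sult. The filter on low counts kept 28 members for testing, 17 Ugt and 11 Sult. Below it fell Ugt1a2 (91 reads over the 12 libraries), Ugt1a8 (14), Ugt2a2 (13), Ugt2a1 (2), Sult2a3 (91), Sult6b1 (30), Sult2a1 (24), Sult3a1 (15), Sult2a4 (14), Sult1c1 (7), Sult2a5 (4), Sult6b2 (4), Sult3a2 (3) and Sult2a6.

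Libraries held 28161057 to 33852338 reads on genes. The hepatocyte markers were high in every library, and 8 of the 9 measured were lower in NASH vehicle than in control livers (median log2 fold change -1.16). Their summed level was 90521 to 111290 CPM in control livers, 40404 to 64960 on the diet with vehicle and 41042 to 60404 with CDDO-Me. CPM are counts scaled to library size after TMM, which sets the typical gene equal between libraries. In bulk liver, fewer cells of a type and less RNA per cell cannot be told apart. Macrophage markers were higher in NASH vehicle livers for 6 of 6 genes, and lower with CDDO-Me than in NASH vehicle for 6 of 6. Control 3 stood apart from the other control libraries: smooth muscle markers summed to 355 CPM there (8.95 to 9.70 in the others) and cholangiocyte markers to 265 CPM (44.9 to 82.6). Among the 5 pancreas markers, Ctrb1 was at 54.2 CPM there (0 in the others). The other 4 pancreas markers had 0 reads in every control library. CDDO-Me 4 had smooth muscle markers at 115 CPM (13.3 to 27.9 in the other 3).

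The Ugt genes made far more RNA than the Sult genes. Summed over the family, Ugt TPM was 3934 ± 271 in control livers (SD, n = 4 here and below), 2631 ± 219 in NASH vehicle and 6189 ± 182 in CDDO-Me livers. The ranges of the 3 groups did not overlap: 3621 to 4256, 2354 to 2885 and 6021 to 6445. Ugt2b5 led in every group, with 27.7%, 23.1% and 33.6% of the family's TPM. In control livers it was followed by Ugt2b36 at 569 ± 28.5 TPM and Ugt1a1 at 551 ± 54.7 TPM, which did not differ beyond their spread, and then by Ugt2b1 at 460 ± 52.1 TPM. Ugt2a3 (249 ± 14.7 TPM) came next, and Ugt2b34 (208 ± 28.4 TPM) and Ugt3a2 (206 ± 21.4 TPM) lay within their spread of each other. In NASH vehicle livers Ugt2b1 stood at 127 ± 28.5 TPM, level with Ugt2b35 (129 ± 11.8 TPM) and Ugt1a6b (127 ± 12.2 TPM). The enzymes of the Ugt1a locus together held 933 ± 113, 800 ± 58.9 and 1532 ± 46.4 TPM, and the Ugt2b genes 2478 ± 201, 1462 ± 118 and 4205 ± 221 TPM. The Ugt3a genes were almost flat on this scale, at 274 ± 31.2, 273 ± 36.4 and 317 ± 15.5 TPM. These TPM sums are not scaled by TMM, and differences between groups depend on that. With TMM, the median log2 fold change of the 17 tested Ugt genes in CDDO-Me against control was -0.04.

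Summed Sult TPM was 767 ± 52.2 in control livers, 505 ± 16.7 on the diet with vehicle and 594 ± 39.9 with CDDO-Me. The leading gene changed. Sult2a8, a sulfotransferase for bile acids, held 50.4% of the family's TPM in control livers, whereas Sult1a1, which sulfates phenols, held 52.8% in NASH vehicle and 56.7% in CDDO-Me livers. The Sult2 genes together went from 388 ± 43.4 TPM in control livers to 71.6 ± 24.6 and 46.4 ± 4.22 TPM. The Sult1 genes stood at 374 ± 52.3, 431 ± 22.6 and 546 ± 36.4 TPM. These sums too are not scaled by TMM, and the direction between groups can depend on it. With TMM, Sult1a1, the leading Sult1 gene, was at 240 ± 16.8, 131 ± 13.7 and 193 ± 20.3 CPM.

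**Figure D1:**
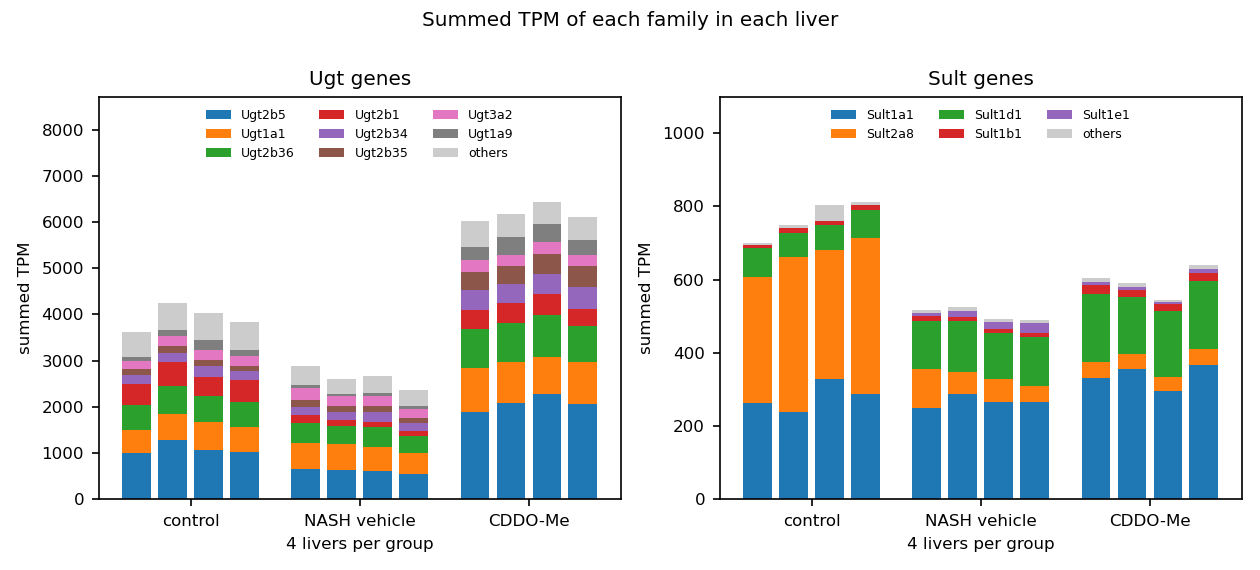
Summed TPM (vertical axis) of the Ugt genes (left) and the Sult genes (right), 1 bar for each of the 4 livers of a group, with colours for the leading genes and light grey for all others. Ugt bars run from 2354 to 2885 in NASH vehicle and from 6021 to 6445 in CDDO-Me livers, and the Sult2a8 part of the control bars is the one that shrinks in both diet groups. TPM are not scaled by TMM, and differences between groups depend on the scale.

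In NASH vehicle against control livers, 22 of the 28 tested members were lower and 2 were higher, and 4 did not pass (edgeR, adjusted p under 0.05). Of all 16456 tested genes 30.0% were called lower and 29.6% higher. The median log2 fold change was -1.0 over the members and -0.01 over all genes. Lower calls took in 16 of 17 Ugt genes and 6 of 11 Sult genes, and both higher calls were Sult genes. How far these calls reach depends on the scale. With library totals in place of TMM the median of all genes moved to 0.62, and the members split into 3 higher and 17 lower. On log2(TPM + 1) the median moved to 0.51, with 5 members higher and 12 lower. Of all 16456 tested genes, 9908 were higher and 1326 lower with library totals, and 10905 and 873 on log2(TPM + 1). Relative to the median of all genes the members' median was -0.99 with TMM, -0.99 with library totals and -0.61 on log2(TPM + 1). On log2(TPM + 1), Ugt1a1, Ugt1a6a, Ugt2b34, Ugt2b35, Sult1a1 and Sult1b1 did not pass (-0.14 to -0.03). With the reads of the hepatocyte markers as library size, an alternative added after seeing the data, the median of all genes was 1.06, 11 members were lower and 7 higher, and 7 of the 16 Ugt genes called lower turned to a positive sign. Of all tested genes 12588 were then higher and 489 lower. The members' median was then -1.02 relative to that of all genes. The part of the hepatocyte markers' own fall in the members' calls was not tested beyond that alternative.

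In CDDO-Me against NASH vehicle livers, edgeR called 16 of 28 tested members higher and 0 lower, and 12 did not pass, where 9.39% of all tested genes were called higher and 7.24% lower. The median log2 fold change was 0.85 over the members and -0.01 over all genes. Higher calls took in 13 of 17 Ugt genes (median 1.15) and 3 of 11 Sult genes (median -0.20). No called member changed sign with library totals (15 higher, 0 lower), on log2(TPM + 1) (13 higher, 2 lower) or with hepatocyte marker reads as library size (16 higher, 0 lower). The 2 lower calls on log2(TPM + 1) were Sult1e1 and Sult2a8. Of all tested genes 926 were higher and 1589 lower with library totals, and 779 and 2607 on log2(TPM + 1). With hepatocyte marker reads as library size 783 were higher and 333 lower. At an unadjusted p under 0.05 edgeR had 20 of 28 members higher and 0 lower. DESeq2, run without the filter on all 42 members, called 20 and 0, and limma-voom 17 and 0 of 28. Of the 9 hepatocyte markers 1 passed in this comparison, lower (median 0.12), while 4 of 5 markers of the sinusoidal endothelium were higher.

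CDDO-Me against control shares its libraries with both other comparisons and is given beside them. There 5 members were higher (26.2% of all tested genes were) and 9 lower (23.6% of all), with a median of -0.04 over the members and 0.03 over all genes. On library totals, which moved the median of all genes to 0.51, the split was 12 higher and 5 lower of 28. On log2(TPM + 1) it was 15 higher and 5 lower of 28. Of all 16456 tested genes, 8678 were higher and 1125 lower with library totals, and 8845 and 812 on log2(TPM + 1). Without control 3 the members split into 9 higher and 7 lower of 30 then tested. Of all 16759 genes then tested, 4710 were higher and 3875 lower.

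**Figure D2:**
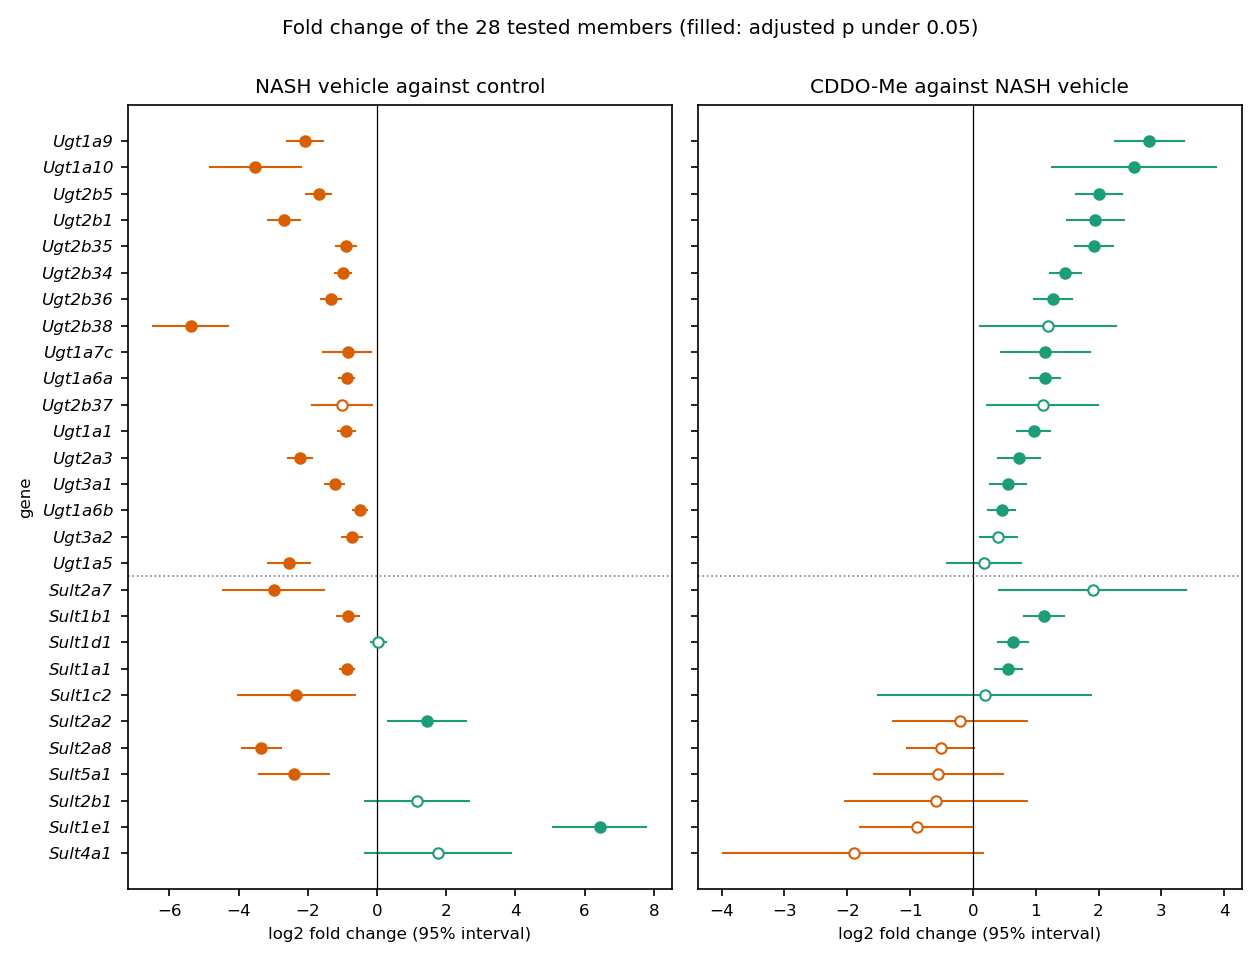
Log2 fold change with its 95% interval (horizontal axes) of the 28 tested members in NASH vehicle against control (left) and CDDO-Me against NASH vehicle (right); filled points pass adjusted p 0.05, and the dotted line parts Ugt from Sult genes. All 17 Ugt points lie below 0 on the left and above 0 on the right with TMM scaling, whereas on log2(TPM + 1) Ugt1a6b, Ugt1a7c and Ugt3a2 lie above 0 on the left, as do Ugt1a6b with library totals and 7 Ugt genes with hepatocyte marker reads as library size.

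Ugt1a1 is the enzyme that makes bilirubin glucuronide. It was at 655, 750, 713 and 678 CPM in control, 426, 421, 336 and 323 in NASH vehicle and 719, 811, 769 and 640 in CDDO-Me livers. All NASH vehicle livers lay below all others, and the control and CDDO-Me livers overlapped. The log2 fold change was -0.89 ± 0.13 (SE here and below; adjusted p = 4.6e-05) in NASH vehicle against control and 0.97 ± 0.13 (adjusted p = 2.6e-04) in CDDO-Me against NASH vehicle. Unique reads gave -1.01 ± 0.10 (adjusted p = 2.2e-06) and 1.03 ± 0.10 (adjusted p = 2.2e-05). Against control, CDDO-Me livers differed by 0.07 (95% interval -0.20 to 0.34, adjusted p = 0.66) with TMM. They were 0.53 higher with library totals (adjusted p = 0.00023), 0.68 on log2(TPM + 1) (adjusted p = 7e-05) and 1.10 with hepatocyte marker reads as library size (adjusted p = 2.2e-06).

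Ugt1a9, which conjugates phenols and many drugs, had the largest rise with CDDO-Me among the 28 tested members. Its levels were 115, 170, 250 and 164 CPM in control, 49.5, 36.1, 35.8 and 43.2 in NASH vehicle and 200, 351, 379 and 225 in CDDO-Me livers. The NASH vehicle livers lay apart from the rest, and CDDO-Me livers 2 and 3 were above the other CDDO-Me livers. Against control, NASH vehicle differed by -2.08 ± 0.26 (adjusted p = 2.1e-05), and CDDO-Me against NASH vehicle by 2.81 ± 0.26 (adjusted p = 2.9e-05), a 7.01-fold difference. Unique reads were 89, 83, 94 and 98 in the NASH vehicle and 427, 573, 618 and 521 in the CDDO-Me livers. On unique reads the 2 changes were -2.04 ± 0.30 (adjusted p = 6.4e-05) and 2.81 ± 0.30 (adjusted p = 5.6e-05). Against control the CDDO-Me livers were 0.73 ± 0.25 higher (adjusted p = 0.027), a call that was lost without control 1, 2 or 4, or without CDDO-Me 2 or 3 (adjusted p 0.062 to 0.086).

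Ugt1a6a and Ugt1a6b make enzymes for small planar phenols and cannot be told apart at their join. Ugt1a6a was at 142, 189, 151 and 157 CPM in control, 101, 87.1, 81.5 and 77.8 in NASH vehicle and 198, 195, 212 and 169 in CDDO-Me livers. It fell by 0.88 ± 0.12 on the log2 scale in NASH vehicle (adjusted p = 2.5e-05) and rose by 1.15 ± 0.12 with CDDO-Me (adjusted p = 3.3e-05). Only 71 of its 52861 reads were unique, too few for the test on unique reads. For Ugt1a6b the levels were 142, 154, 118 and 151 CPM in control, 118, 93.7, 96.7 and 92.6 in NASH vehicle and 139, 142, 144 and 125 in CDDO-Me livers. Control 3 and NASH vehicle 1 overlapped at 118 CPM. The difference in NASH vehicle was -0.50 ± 0.11 (adjusted p = 0.0014) and, on unique reads, -0.59 ± 0.13 (adjusted p = 0.0017). It turned to 0.13 with library totals (adjusted p = 0.17). With the turned sign it passed on log2(TPM + 1) (0.32, adjusted p = 0.0088) and with hepatocyte marker reads as library size (0.56, adjusted p = 0.00079). With CDDO-Me, Ugt1a6b was 0.46 ± 0.11 higher than in NASH vehicle (adjusted p = 0.012), and 0.52 ± 0.13 on unique reads (adjusted p = 0.017). That rise missed the threshold on log2(TPM + 1) (adjusted p = 0.068).

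Ugt1a7c was at 11.6, 27.9, 41.4 and 13.6 CPM in control, 12.6, 14.9, 11.8 and 13 in NASH vehicle and 25.7, 29.6, 26.1 and 35.1 in CDDO-Me livers. The control livers were spread over the range of both other groups. The difference in NASH vehicle against control, -0.85 ± 0.33 (adjusted p = 0.043), held under 5 of 25 other settings. Without control 3 it was -0.44 (adjusted p = 0.14), and it turned to 0.13 on log2(TPM + 1). On unique reads it was -1.09 ± 0.25 (adjusted p = 0.0018). CDDO-Me livers were 1.15 ± 0.33 above NASH vehicle livers (adjusted p = 0.035; unique reads 1.01 ± 0.25, adjusted p = 0.013), and without any 1 of the NASH vehicle or CDDO-Me libraries the adjusted p was 0.055 to 0.096. Ugt1a10 was scarce, at 3.00, 3.97, 4.74 and 2.86 CPM in control, 0.298, 0.330, 0 and 0.636 in NASH vehicle and 1.73, 2.67, 1.13 and 2.01 in CDDO-Me livers. Its changes were -3.52 ± 0.62 (adjusted p = 3.2e-04) and 2.57 ± 0.61 (adjusted p = 0.013). These rest on 46 reads in the NASH vehicle group, 0 of them unique, and 36.5% of all its reads were intronic.

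Ugt1a5 did not follow the other Ugt1a genes after CDDO-Me on total reads. Its levels were 90.2, 64.9, 55.8 and 117 CPM in control, 21.5, 13.7, 10.9 and 10.3 in NASH vehicle and 19.1, 15.3, 11.7 and 17.3 in CDDO-Me livers. Both diet groups lay below all controls and overlapped each other. It was -2.54 ± 0.29 against control in NASH vehicle livers (adjusted p = 1.4e-05), and CDDO-Me against NASH vehicle differed by 0.18 (95% interval -0.43 to 0.78, adjusted p = 0.71). On unique reads, 24 in the NASH vehicle and 44 in the CDDO-Me group, that difference was 1.05 ± 0.40 (adjusted p = 0.086). NASH vehicle against control was -3.55 ± 0.38 on unique reads (adjusted p = 3.8e-06). Whether Ugt1a5 differs from the other Ugt1a genes was not tested.

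**Figure D3:**
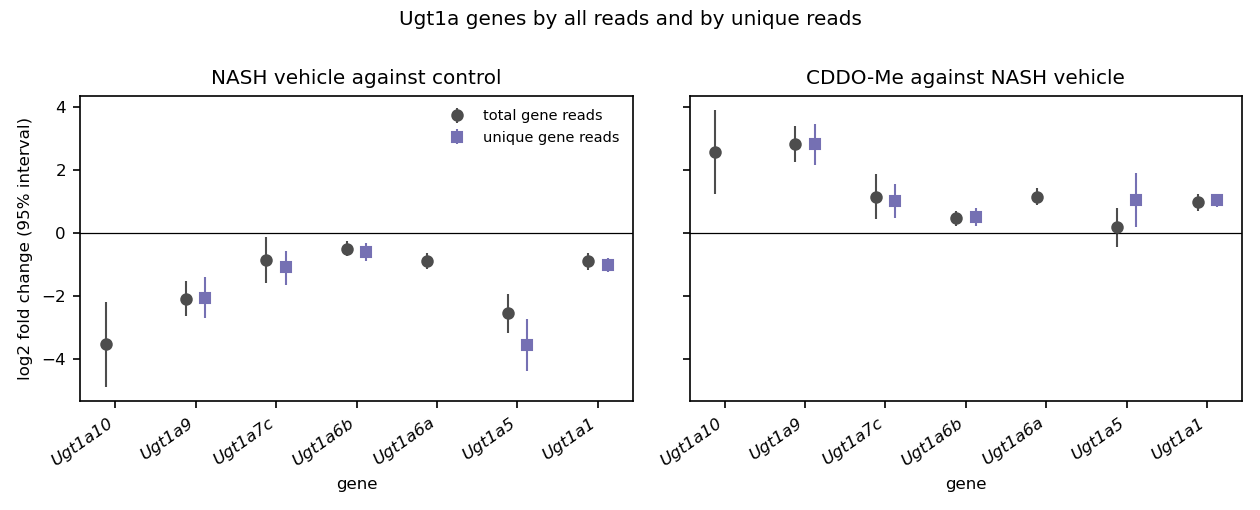
Log2 fold change with its 95% interval (vertical axes) of the 7 tested Ugt1a genes, from all gene reads (circles) and from unique gene reads (squares), in NASH vehicle against control (left) and CDDO-Me against NASH vehicle (right). Ugt1a9 has the same 2.81 from both kinds of read, Ugt1a5 moves from 0.18 to 1.05, and Ugt1a6a and Ugt1a10 had too few unique reads.

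The Ugt2b genes form a cluster on chromosome 5 and make enzymes for steroids, bile acids and drugs. Unlike Ugt1a genes they share no exons, and nearly all of their reads were unique, except for Ugt2b5 (75.2%) and Ugt2b38 (74.3%). Those 2 genes are 97.0% identical over their coding sequence, and 28.4% of the 75-base windows of the Ugt2b5 transcript also occur in Ugt2b38. Their levels differed in CDDO-Me livers, where Ugt2b5 overlapped control and Ugt2b38 did not. Whether the bases just before their start sites bear on that difference was not tested. The last 100 bases before the RefSeq start (GRCm38.p6, minus strand) are given for both and for Ugt2b37, whose coding sequence is 94.7% identical to that of Ugt2b5, with the longest run common to all 3, of 62 bases, in capitals. They lie at chr5:87140341-87140440 for Ugt2b5, chr5:87254789-87254888 for Ugt2b37 and chr5:87424204-87424303 for Ugt2b38:
Ugt2b5: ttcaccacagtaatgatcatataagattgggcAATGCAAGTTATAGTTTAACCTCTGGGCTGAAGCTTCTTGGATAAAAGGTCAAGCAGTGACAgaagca
Ugt2b37: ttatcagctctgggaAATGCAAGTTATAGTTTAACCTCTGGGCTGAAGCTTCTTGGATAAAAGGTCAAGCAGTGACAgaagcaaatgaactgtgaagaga
Ugt2b38: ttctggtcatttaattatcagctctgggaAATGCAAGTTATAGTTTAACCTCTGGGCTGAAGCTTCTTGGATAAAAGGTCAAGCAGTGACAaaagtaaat
Over 250 bases before the start, Ugt2b5 and Ugt2b38 were 80.0% identical and Ugt2b37 and Ugt2b38 84.8%. These identities describe the sequences and say nothing of what binds there.

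Ugt2b5, the most abundant member, was at 1211, 1512, 1066 and 1146 CPM in control, 450, 418, 331 and 333 in NASH vehicle and 1267, 1653, 1923 and 1327 in CDDO-Me livers. Every NASH vehicle liver was below every other liver. The changes were -1.69 ± 0.18 (adjusted p = 3.3e-06) and 2.01 ± 0.18 (adjusted p = 1.1e-05), the latter a 4.03-fold difference, and on unique reads -1.66 and 2.03. Against control, CDDO-Me livers differed by 0.32 (95% interval -0.05 to 0.69, adjusted p = 0.13) with TMM and were 0.94 higher on log2(TPM + 1) (adjusted p = 7.1e-06).

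Ugt2b38, its near copy, was at 31.9, 18.4, 16.6 and 15.4 CPM in control, 0.805, 0.220, 0.368 and 0.583 in NASH vehicle and 0.612, 0.526, 2.26 and 1.18 in CDDO-Me livers. All livers on the diet lay far below all controls, and the diet groups overlapped. It fell by 5.38 ± 0.51 on the log2 scale in NASH vehicle (adjusted p = 2.9e-06), 41.7-fold and the largest fall of any member. In CDDO-Me livers against control it was -4.18 ± 0.47 (adjusted p = 1.8e-05). CDDO-Me against NASH vehicle gave 1.20 (95% interval 0.10 to 2.30, adjusted p = 0.13), and DESeq2 called it (1.18, adjusted p = 0.045). Unique reads gave -5.33 and 1.11, from 55 such reads in the NASH vehicle and 102 in the CDDO-Me group. Ugt2b37, between 0.982 and 4.92 CPM in all livers, did not pass in any of the 3 comparisons in the main edgeR fit (total reads, TMM, no replicate block). Its log2 fold changes were -1.02 (adjusted p = 0.050, just over the threshold) and 1.11 (adjusted p = 0.087). DESeq2 called both (-0.97, adjusted p = 0.042, and 1.08, adjusted p = 0.049). The fall in NASH vehicle passed under 8 of 25 other settings. Among them were edgeR on unique reads (-1.02, adjusted p = 0.043) and edgeR with the replicate block (-0.95, adjusted p = 0.043).

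The other Ugt2b genes were lower in NASH vehicle and higher with CDDO-Me, to different heights. Ugt2b1 was at 706, 812, 532 and 718 CPM in control, 153, 105, 88.1 and 84.0 in NASH vehicle and 378, 465, 510 and 305 in CDDO-Me livers. The 3 groups did not overlap, and CDDO-Me livers stood between the others. It changed by -2.69 ± 0.22 (adjusted p = 5.2e-07) and 1.95 ± 0.22 (adjusted p = 6.7e-05), and CDDO-Me against control by -0.74 ± 0.21 (adjusted p = 0.010). The last of these missed the threshold with library totals (-0.28, adjusted p = 0.12). With hepatocyte marker reads as library size it turned to 0.28 and passed (adjusted p = 0.048).

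Ugt2b35 was at 283, 307, 218 and 251 CPM in control, 168, 149, 130 and 122 in NASH vehicle and 462, 549, 637 and 517 in CDDO-Me livers. Here every CDDO-Me liver was above every control. The changes were -0.89 ± 0.14 (adjusted p = 1.3e-04), 1.93 ± 0.15 (adjusted p = 2.9e-06) and, against control, 1.03 ± 0.14 (adjusted p = 5.8e-05). Ugt2b34 was at 528, 538, 550 and 434 CPM in control, 277, 276, 253 and 234 in NASH vehicle and 644, 736, 833 and 671 in CDDO-Me livers, again with CDDO-Me above every control. It changed by -0.98 ± 0.12 (adjusted p = 1.5e-05), 1.47 ± 0.12 (adjusted p = 6.8e-06) and, against control, 0.49 ± 0.12 (adjusted p = 0.0041).

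For Ugt2b36 the levels were 704, 776, 618 and 674 CPM in control, 329, 277, 249 and 253 in NASH vehicle and 615, 709, 823 and 536 in CDDO-Me livers. Control and CDDO-Me livers overlapped. It changed by -1.32 ± 0.15 (adjusted p = 6.3e-06) and 1.28 ± 0.15 (adjusted p = 9.3e-05), and CDDO-Me differed from control by -0.05 (95% interval -0.36 to 0.27, adjusted p = 0.81) with TMM. That difference turned to 0.41 with library totals (adjusted p = 0.0013), 0.56 on log2(TPM + 1) (adjusted p = 6.8e-05) and 0.97 with hepatocyte marker reads as library size (adjusted p = 2.6e-06). The signs of the changes of Ugt2b34 and Ugt2b35 in NASH vehicle turned with hepatocyte marker reads as library size, to 0.08 and 0.17, neither past the threshold.

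Ugt2a3, whose human counterpart is known to conjugate bile acids, stood between NASH vehicle and control in CDDO-Me livers. It was at 311, 351, 265 and 300 CPM in control, 86.5, 61.4, 57.1 and 57.1 in NASH vehicle and 112, 113, 130 and 81.7 in CDDO-Me livers. All diet livers were below all controls, and NASH vehicle 1 overlapped the lowest CDDO-Me liver. The changes were -2.23 ± 0.17 (adjusted p = 2.5e-07), 0.74 ± 0.16 (adjusted p = 0.0082) and, against control, -1.49 ± 0.16 (adjusted p = 8.4e-06).

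The Ugt3a enzymes take sugar donors other than UDP-glucuronate in their human counterparts. Ugt3a1 was at 89.6, 114, 110 and 116 CPM in control, 58.7, 43.5, 40.0 and 42.3 in NASH vehicle and 67.3, 70.2, 79.2 and 55.0 in CDDO-Me livers. Both diet groups lay below the controls, with an overlap at NASH vehicle 1. Its changes were -1.22 ± 0.14 (adjusted p = 7.6e-06) and 0.56 ± 0.14 (adjusted p = 0.015), and the latter was lost without NASH vehicle 3 or 4 or CDDO-Me 3 (adjusted p 0.054 to 0.057). Ugt3a2, at 194 to 401 CPM over all livers, was -0.72 ± 0.15 in NASH vehicle (adjusted p = 7.7e-04), which turned to 0.10 on log2(TPM + 1) (adjusted p = 0.39). With hepatocyte marker reads as library size it turned to 0.31 and passed (adjusted p = 0.019). Its 0.40 ± 0.14 with CDDO-Me did not pass (adjusted p = 0.074), and it passed without NASH vehicle 1 (0.55, adjusted p = 0.0094).

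**Figure D4:**
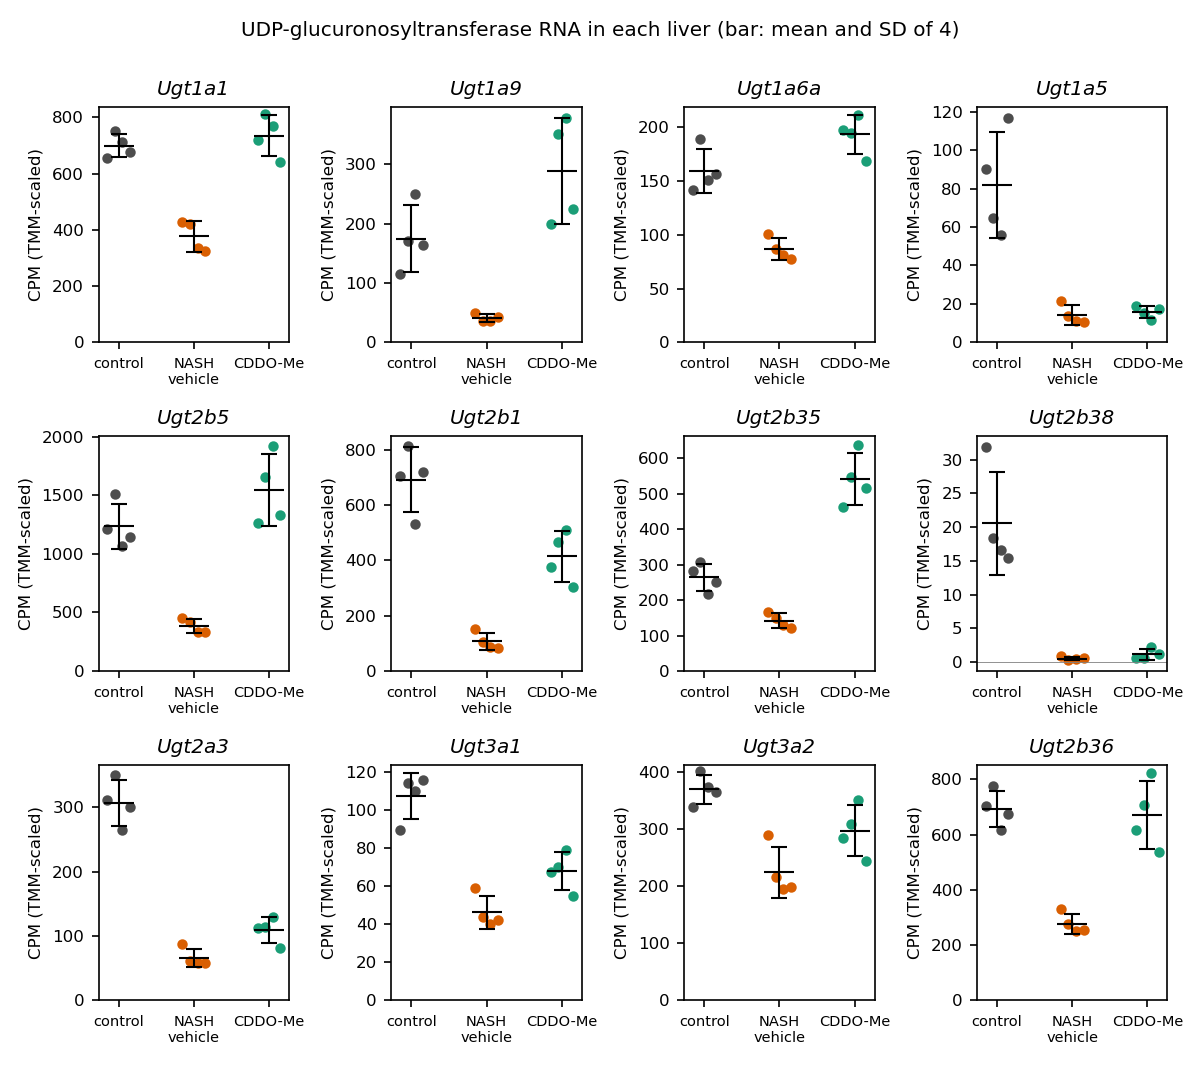
TMM-scaled CPM (vertical axes) of 12 Ugt genes in each of the 4 livers of a group (points), with mean and SD (bars). NASH vehicle points lie lowest for Ugt1a1, Ugt1a9, Ugt1a6a, Ugt2b5, Ugt2b1, Ugt2b35 and Ugt2b36, while the CDDO-Me points of Ugt1a5 and Ugt2b38 overlap those of NASH vehicle. On log2(TPM + 1) the differences from control of Ugt1a1, Ugt1a6a and Ugt2b35 in NASH vehicle do not pass, and with hepatocyte marker reads as library size they turn to a positive sign.

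Among the sulfotransferases, the 3 genes called with CDDO-Me against NASH vehicle were Sult1a1, Sult1b1 and Sult1d1. Sult1a1, for phenols, was at 240, 218, 258 and 246 CPM in control, 133, 147, 114 and 130 in NASH vehicle and 174, 221, 195 and 182 in CDDO-Me livers. CDDO-Me livers lay above all NASH vehicle livers, and 1 of them reached the controls. The changes were -0.88 ± 0.11 (adjusted p = 1.3e-05) and 0.56 ± 0.11 (adjusted p = 0.0035). The difference from control with CDDO-Me, -0.32 ± 0.11 (adjusted p = 0.024), turned to 0.14 with library totals (adjusted p = 0.21) and to 0.27 on log2(TPM + 1), where it passed (adjusted p = 0.037). It was lost with no filter (adjusted p = 0.057) and without control 3 or 4 or CDDO-Me 1 or 4 (adjusted p 0.055 to 0.08). Its exons share 61 bases with Sgf29 on the opposite strand.

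Sult1b1, a thyroid hormone sulfotransferase, was at 15.7, 22.3, 15.6 and 21.9 CPM in control, 13.5, 10.2, 8.62 and 9.57 in NASH vehicle and 24.3, 23.1, 24.6 and 20 in CDDO-Me livers. NASH vehicle livers were below all others. Its changes were -0.85 ± 0.16 (adjusted p = 4.4e-04; library totals -0.22, adjusted p = 0.16) and 1.13 ± 0.16 (adjusted p = 4.2e-04). Sult1d1, which acts on catecholamines in mice, was at 116, 98.1, 88.5 and 108 CPM in control, 114, 116, 88.0 and 105 in NASH vehicle and 159, 157, 194 and 148 in CDDO-Me livers. Control and NASH vehicle livers overlapped, and all CDDO-Me livers were above both. NASH vehicle differed from control by 0.04 (95% interval -0.21 to 0.30, adjusted p = 0.77) with TMM and by 0.67 with library totals (adjusted p = 3.1e-05), while CDDO-Me was 0.64 ± 0.12 above NASH vehicle (adjusted p = 0.0031) and 0.68 ± 0.12 above control (adjusted p = 4.0e-04).

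Sult1e1, the estrogen sulfotransferase, went the other way from most of the family. Reads were 6, 0, 2 and 0 in the control livers, 113, 300, 286 and 418 in NASH vehicle and 108, 117, 91 and 198 in CDDO-Me livers. All livers on the diet were above all controls, and the diet groups overlapped. On CPM that was 0.230, 0, 0.0740 and 0, then 3.37, 8.24, 7.02 and 11.1, and then 2.87, 4.11, 3.32 and 5.68. NASH vehicle was 6.44 ± 0.64 above control (adjusted p = 2.9e-06) and CDDO-Me 5.55 ± 0.64 above control (adjusted p = 1.6e-05), sizes that rest on 8 control reads. CDDO-Me against NASH vehicle gave -0.89 (95% interval -1.81 to 0.02, adjusted p = 0.17).

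Sult2a8 was the most abundant sulfotransferase of control livers. It was at 788, 917, 661 and 934 CPM there, at 140, 70.0, 67.1 and 49.8 in NASH vehicle and at 56.4, 60.1, 61.4 and 51.8 in CDDO-Me livers. All diet livers were below all controls, and the diet groups overlapped. The change was -3.34 ± 0.27 in NASH vehicle (adjusted p = 6.8e-07, 10.1-fold) and -3.85 ± 0.28 in CDDO-Me livers against control (adjusted p = 4.9e-07). CDDO-Me differed from NASH vehicle by -0.51 (95% interval -1.06 to 0.04, adjusted p = 0.19). Sult5a1 behaved alike in the diet groups: it was at 12.9, 18.4, 20.7 and 21.9 CPM in control, 7.24, 1.68, 3.46 and 1.75 in NASH vehicle and 1.65, 4.49, 1.75 and 1.81 in CDDO-Me livers. It was -2.39 ± 0.48 in NASH vehicle (adjusted p = 9.8e-04) and -2.94 ± 0.49 in CDDO-Me livers against control (adjusted p = 4.1e-04). Of its reads 30.4% were intronic and 48.7% unique, and its span overlaps Gm20388 on the opposite strand, with no shared exon bases.

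The remaining Sult genes were near the limit of detection or set by a few libraries. Sult1c2 was at 2.88, 3.04, 34.9 and 3.26 CPM in control, 3.07, 2.06, 1.91 and 1.72 in NASH vehicle and 2.98, 2.77, 1.46 and 2.72 in CDDO-Me livers. Its fall in NASH vehicle, -2.33 ± 0.78 (adjusted p = 0.023), was -0.49 ± 0.28 without control 3 (adjusted p = 0.15). The fall against control with CDDO-Me, -2.15 ± 0.78 (adjusted p = 0.039), was -0.30 without it (adjusted p = 0.4). Sult2a2, at most 1.48 CPM, was called 1.45 ± 0.54 higher in NASH vehicle (adjusted p = 0.033). Over all libraries 59.7% of its reads were intronic. On unique reads the difference was 1.22 (adjusted p = 0.065). The call was also lost without control 1 or 2 or NASH vehicle 2, 3 or 4 (adjusted p 0.050 to 0.12). Sult2a7, at most 1.41 CPM, was -2.99 ± 0.70 in NASH vehicle (adjusted p = 0.0022) and 1.91 ± 0.70 with CDDO-Me against NASH vehicle (adjusted p = 0.080). The latter was called by DESeq2 (1.90, adjusted p = 0.031), by limma-voom (2.53, adjusted p = 0.042) and without NASH vehicle 1 (2.69, adjusted p = 0.027). Sult2b1 and Sult4a1 did not pass in any comparison in the main edgeR fit (total reads, TMM, all libraries). In NASH vehicle against control limma-voom called both (1.94, adjusted p = 0.021, and 3.17, adjusted p = 0.0069). So did edgeR with hepatocyte marker reads as library size (2.18, adjusted p = 0.018, and 2.76, adjusted p = 0.027). Without control 3, edgeR also called both higher, at 3.06 (adjusted p = 0.0003) and 6.70 (adjusted p = 0.0019), the latter against 3 control libraries with 0 reads. Without it both passed in CDDO-Me against control too, at 2.47 (adjusted p = 0.0023) and 4.80 (adjusted p = 0.037).

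Sult2a3, which was below the filter, had 0, 0, 0 and 1 reads in control, 0, 0, 0 and 6 in NASH vehicle and 42, 17, 8 and 17 in CDDO-Me livers. Every CDDO-Me liver had more reads than any other liver. With no filter its difference between CDDO-Me and NASH vehicle was 3.83 ± 0.95 (adjusted p = 0.013). It was the single untested member called in that comparison with no filter, and it was picked out after its values were seen. In NASH vehicle against control, the no-filter fit called Sult2a1 (24 reads in all) and Sult6b1 (30 reads, 1 of them unique) higher.

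**Figure D5:**
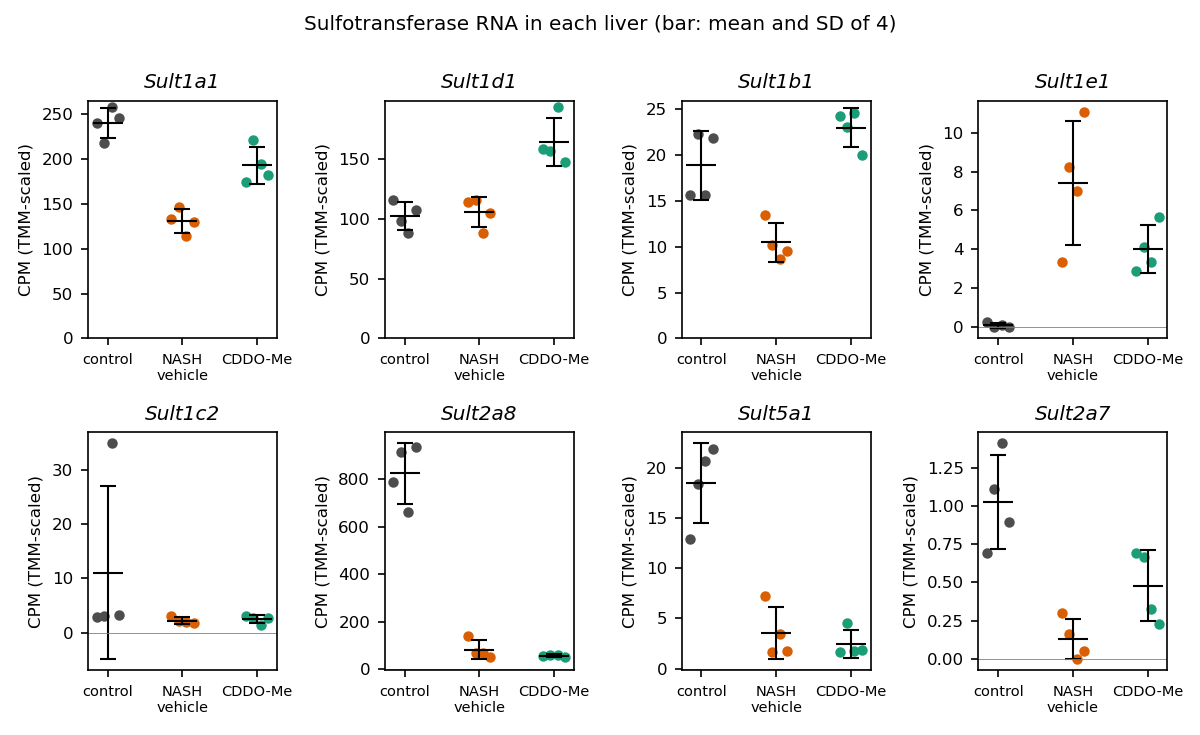
TMM-scaled CPM (vertical axes) of 8 Sult genes in each of the 4 livers of a group (points), with mean and SD (bars). Sult2a8 and Sult5a1 are low in all diet livers, Sult1e1 is near 0 in the controls, Sult1d1 is highest with CDDO-Me, and the 34.9 CPM of control 3 sets the Sult1c2 mean.

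The genes that make and release the glucuronate donor moved with the Ugt genes in part. Of 7 genes, 1 was higher and 5 lower in NASH vehicle against control (median -0.57), and 4 were higher and 1 lower with CDDO-Me against NASH vehicle (median 0.96). Among all tested genes 29.6% were higher and 30.0% lower in the former comparison, and 9.39% and 7.24% in the latter. Ugp2, which makes UDP-glucose, was at 329 ± 22.2, 207 ± 32.9 and 887 ± 121 CPM in control, NASH vehicle and CDDO-Me livers, a log2 change of 2.10 ± 0.14 with CDDO-Me (adjusted p = 8.8e-07). Ugdh, which oxidises UDP-glucose to UDP-glucuronate, was at 249 ± 40.8, 204 ± 23.8 and 640 ± 77.3 CPM (1.65 ± 0.14, adjusted p = 8.9e-06). Pgm2, a phosphoglucomutase, rose by 1.29 ± 0.17 and Slc35d1, which carries UDP-glucuronate into the endoplasmic reticulum, by 0.96 ± 0.15 (adjusted p = 3.0e-04 and 7.9e-04). Gusb, the lysosomal enzyme that removes glucuronic acid, went opposite, at 38.3 ± 4.86, 87.0 ± 15.5 and 52.7 ± 3.87 CPM, 1.18 ± 0.13 higher in NASH vehicle (adjusted p = 5.3e-06) and -0.72 ± 0.13 with CDDO-Me against NASH vehicle (adjusted p = 0.0021). In NASH vehicle Pgm2 (-1.20), Ugp2 (-0.67) and the nucleotide sugar carrier Slc35d2 (-0.57) were lower.

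Of 11 measured genes for PAPS supply and sulfate release, 1 was higher and 3 lower in NASH vehicle (median -0.12), and 1 passed, higher, with CDDO-Me (median -0.15). These shares are near those of all tested genes for lower calls in NASH vehicle (30.0%) and higher calls with CDDO-Me (9.39%). Papss2, which makes PAPS, was at 205 ± 29.7, 82.7 ± 9.37 and 82.9 ± 9.58 CPM, -1.31 ± 0.13 in NASH vehicle (adjusted p = 1.7e-06). Also called in NASH vehicle were Bpnt1, which breaks down the spent donor (-0.98), the sulfate carrier Slc26a1 (-0.57) and the PAPS carrier Slc35b3 (0.35). The gene called with CDDO-Me was Impad1, another phosphatase of the spent donor (0.32 ± 0.09, adjusted p = 0.037).

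Of 10 transporters of the conjugates, 3 were higher and 4 lower in NASH vehicle (median -0.35), where 29.6% of all tested genes were higher and 30.0% lower. With CDDO-Me 5 passed, each of them higher (median 0.57), where 9.39% of all tested genes were higher. Abcc4, an exporter into blood, was at 2.90 ± 1.19, 11.7 ± 1.08 and 309 ± 54.0 CPM, a change of 4.72 ± 0.26 with CDDO-Me (adjusted p = 3.7e-07). The bile exporter Abcc2 rose by 1.10 ± 0.16, the blood exporter Abcc3 by 1.46 ± 0.17, the bile exporter Abcg2 by 1.11 ± 0.14 and the uptake carrier Slco1b2 by 0.65 ± 0.14 (adjusted p = 4.6e-04, 7.8e-05, 1.8e-04 and 0.0071). In NASH vehicle the exporters Abcc1 (3.52) and Abcc5 (3.33) were higher, and the uptake carriers Slco1a1 (-4.53) and Slco2b1 (-1.20) lower.

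Of 16 regulators known to act on these genes, 2 were higher and 11 lower in NASH vehicle (median -0.56), and 2 were higher and 2 lower with CDDO-Me (median 0.09). The shares of all tested genes were 29.6% higher and 30.0% lower in NASH vehicle, and 9.39% and 7.24% with CDDO-Me. The counts with CDDO-Me are near those shares. Nr1i3, which encodes CAR, was at 147 ± 32.7, 79.0 ± 17 and 220 ± 21.2 CPM, 1.48 ± 0.17 above NASH vehicle with CDDO-Me (adjusted p = 9.2e-05). Nr1i2, which encodes PXR, was 0.30 ± 0.10 above it, at an adjusted p of 0.050 that rounds to the threshold from below. Nfe2l2, the gene of NRF2 itself, was at 59.2 ± 9.35, 95.6 ± 7.49 and 72.6 ± 6.64 CPM, and the repressor gene Bcl6 at 85.0 ± 28.5, 32.1 ± 8.11 and 18.9 ± 2.70 CPM. With CDDO-Me against NASH vehicle they changed by -0.40 ± 0.11 and -0.76 ± 0.24 (adjusted p = 0.029 and 0.048). In NASH vehicle against control, Esr1 (-1.29), Nr1i2 (-0.61) and Nfe2l2 (0.69) were among those of lowest p.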

How the data were processed

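Members and gene lists were chosen with earlier results of these data known. Per the file headers, each of the 12 deposited tables gives counts per gene (total, unique, exon, junction and intron reads), TPM, RPKM and 2 kinds of read fraction (unique, intron). Total counts equal exon plus intron reads, and the authors' TPM follow total exon reads over exon length. RPKM and fractions of the authors were not used. The build is GRCm38 per the submitters' processing notes; the sources used here name no aligner, counter or strand. Coordinates of all 42 members match GENCODE M21.

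Total gene reads were tested with edgeR 4.0.16 (R 4.3.3): filterByExpr by group (minimum count 10, total 15), which kept 16456 genes, TMM scaling, a robust quasi-likelihood fit over 12 libraries with 1 mean per group, two-sided, and Benjamini-Hochberg adjustment over all tested genes at 0.05. SE is the absolute log2 fold change over the square root of F. Intervals cover 95%; floors are 3 reads and cover counting error only. Mean TMM factors were 0.78 (control), 1.20 (NASH vehicle) and 1.08 (CDDO-Me). The fit was tested on simulated data in which few genes changed, as many up as down. That test cannot bear on the choice of scaling. Same-numbered libraries were not paired: their deviations correlated at -0.223 to 0.187.

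Values for each library are given for members that pass in CDDO-Me against NASH vehicle, the 6 largest rises and falls in NASH vehicle (mean of at least 1 CPM) and the 6 highest mean TPM of each family. From the lists, the text names the genes called with CDDO-Me and the 4 of lowest p in NASH vehicle, of which 1 is not reported here. The hepatocyte marker Tf and Sts were not analysed here. There were 13 alternatives planned and 1 added later (hepatocyte marker reads as library size), with DESeq2 1.42.0 and limma 3.58.1 among the tools.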

Additional observations from a re-analysis of the deposited data

Results flagged for a closer look

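Of 84 sets of 4 livers (28 members in 3 groups), 7 held a library whose gap to the nearest other divided by the range of the set was above Dixon's 95% critical value. Chance flags about 1 in 20 such sets. Of the 7, 3 were in control 3: Sult1c2 was at 34.9 CPM (2.88 to 3.26 in the others), Sult2b1 at 1.37 (0.0768 to 0.138) and Sult4a1 at 0.444 (0 in the others). In NASH vehicle 1, Ugt1a6b was at 118 CPM (92.6 to 96.7) and Ugt2a3 at 86.5 (57.1 to 61.4). That library had the highest level of its group for 20 of the 28 tested members, and its hepatocyte markers summed to 64960 CPM, the most of its group. In CDDO-Me 2, Sult5a1 was at 4.49 CPM (1.65 to 1.81), and in CDDO-Me 3, Sult1c2 was at 1.46 (2.72 to 2.98). CDDO-Me 3 had the highest level of its group for 16 of the 28.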

How the results depend on the processing

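In NASH vehicle against control, 2 members were higher and 22 lower; in CDDO-Me against NASH vehicle 16 and 0; in CDDO-Me against control 5 and 9. Leaving out 1 library at a time gave 1 to 4 and 20 to 23, 15 to 19 and 0, and 4 to 9 and 7 to 9. Calls held under each alternative in which the member was tested for 12 of 24 members in NASH vehicle against control, 13 of 16 in CDDO-Me against NASH vehicle and 9 of 14 in CDDO-Me against control; Ugt1a6a and Ugt1a10 were not tested on unique reads. Higher in NASH vehicle were 4 with DESeq2, 4 with no filter, 4 with limma-voom, 1 each with 50 reads in 4 libraries, with 8 libraries, with unique reads and with exon reads, 5 on log2(TPM + 1), 6 on log2(TPM + 0.1) and 7 with hepatocyte marker reads. Lower were 12 on both TPM scales and 11 with hepatocyte marker reads. On log2(TPM + 1), 2 were lower with CDDO-Me against NASH vehicle. CDDO-Me against control gave 12 higher with library totals, 8 with DESeq2, 15 and 16 on the TPM scales and 18 with hepatocyte marker reads. Lower were 5 with library totals, both TPM scales and hepatocyte marker reads. DESeq2 was run without the filter, on all 42 members. Of all 16456 tested genes there, 8678 were higher with library totals, 8845 and 9243 on the TPM scales and 13243 with hepatocyte marker reads. These scalings set another zero (median of all genes 0.62, 0.51 and 1.06 in NASH vehicle against control); other causes were not tested.

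Signs turned in NASH vehicle against control for Ugt1a7c (0.13 on log2(TPM + 1), 0.16 on log2(TPM + 0.1), 0.19 with hepatocyte marker reads), Ugt1a6b (0.13 with library totals, 0.32 on both TPM scales, 0.56 with hepatocyte marker reads) and Ugt3a2 (0.10 on both TPM scales, 0.31). With hepatocyte marker reads they also turned for Ugt1a6a (0.18), Ugt1a1 (0.16), Ugt2b34 (0.08), Ugt2b35 (0.17), Sult1b1 (0.19) and Sult1a1 (0.18). In CDDO-Me against control they turned for Ugt2b36 (0.41 with library totals, 0.01 with exon reads, 0.56 on both TPM scales, 0.97 with hepatocyte marker reads), Sult1a1 (0.14, 0.27, 0.28 and 0.70 with library totals, the TPM scales and hepatocyte marker reads), and with hepatocyte marker reads Ugt2b1 (0.28) and Ugt3a1 (0.36). With the turned sign in NASH vehicle, Ugt1a6b passed on both TPM scales and with hepatocyte marker reads, and Ugt3a2 with hepatocyte marker reads. In CDDO-Me against control, Ugt2b36 passed in each of its settings but exon reads, and Sult1a1 in each but library totals. Ugt2b1 and Ugt3a1 also passed there with the turned sign. Sult1c2 with CDDO-Me against NASH vehicle was -0.01 on log2(TPM + 0.1). Without 1 library, signs of uncalled differences turned for Sult1d1 in NASH vehicle (-0.02 to 0.12), for Sult2a2 (-0.40 to 0.12) and Sult5a1 (-1.02 to 0.07) with CDDO-Me against NASH vehicle, and for Ugt2b36 with CDDO-Me against control (-0.16 to 0.05). With the replicate block the counts were 2 and 21, 16 and 0, and 5 and 8. Same-numbered libraries correlated above 0.1 in 2 of 12 pairs, and 0 libraries correlated best with their own number. Depth limits Ugt1a10, Sult1e1 in control livers, Sult2a2, Sult2a7, Sult2b1 and Sult4a1.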
